A study of Homo sapiens with 3 samples.

Results

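Replication origins of chromosomes 20 and 22 were examined in short nascent strand sequencing (SNS-seq) of HCT116 cells, a long-established line from a human colorectal cancer. Their members are all calls on these chromosomes in the lists of the 3 replicates, with chromosome 20 divided into a short and a long arm at 27.5 Mb of the hg19 genome. EPIC2, which finds diffuse regions, placed 7166, 2322 and 4308 regions there in replicates 1, 2 and 3, together 13796 of 247794 regions on all chromosomes. MACS2, which reports the single base where a narrow peak is highest, placed 10047, 3147 and 6601 summits there in the same order, together 19795 of 443480. All cells were wild type, untreated and grown in RPMI medium, and the strands were purified with λ-exonuclease. The replicates formed a single group with no control library among the files, so the comparisons run between chromosomes and arms within each replicate. Nothing in the labels says whether the replicates came from separate cultures, and any p-value then measures only the spread between these libraries.

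A replication origin is a place where the 2 strands of DNA are opened and copying begins. The origin recognition complex, of which ORC1 is a subunit, marks possible sites before S phase, and only some of them fire in a given cell. Each new strand starts from a short RNA primer, which protects it from λ-exonuclease while broken DNA is digested, so sequencing the surviving short strands maps the sites that fired. Gene-rich, GC-rich chromosomes are known to replicate early and to hold many origins, and gene-poor stretches are known to replicate late from few of them.

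An EPIC2 region holding at least 1 MACS2 summit of its own replicate is called a common region below. Over all chromosomes replicates 1, 2 and 3 had 101664, 25282 and 56513 common regions. Replicate 2 had the fewest calls, and replicate 3 the widest regions, with a genome-wide median of 3200 bases against 1600 in replicate 1 and 2400 in replicate 2. Replicate 3 also stood apart in the position of its summits, since 37.3% of the summits of replicate 2 lay within 100 bases of a summit of replicate 1, but only 7.38% lay that close to a summit of replicate 3. Read depth is unknown, as the files list calls without read numbers. Densities are therefore relative, being the share of a replicate's common regions that lay on a chromosome or arm divided by that segment's share of the 2885 Mb of 1 Mb windows holding any call. A relative density of 1 is the average of the genome. These windows include 152 Mb of chromosome X, whose relative density was only 0.0988, 0.131 and 0.00772, so the average of the autosomes lay slightly above 1.

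The label of small and gene-rich chromosomes held for chromosome 22 and in part for chromosome 20. Among 23 chromosomes, chromosome 22 had the shortest span with calls, 36 Mb, and chromosome 20 ranked 4 from the shortest with 61 Mb, 27 Mb on the short arm and 34 Mb on the long arm. In the GENCODE v44 annotation of GRCh38, a later build than that of the calls, chromosome 22 had 11.4 protein-coding genes per Mb and ranked 3, and chromosome 20 had 8.54 and ranked 7, against 6.93 over the autosomes. The genes of chromosome 20 were unequally placed. Before its longest stretch without a coding gene, 5.56 Mb in length, lay 186 genes at 7.24 per Mb, and after it 360 genes at 10.8 per Mb. GC content was 47.0% on chromosome 22 and 43.8% on chromosome 20, against 41.0% over the autosomes.

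Common regions were dense on chromosome 22 and on the long arm of chromosome 20, and sparser than the genome average on the short arm. Chromosome 22 held 2619, 680 and 1368 common regions in replicates 1, 2 and 3, which is 72.8, 18.9 and 38.0 per Mb. The long arm of chromosome 20 held 2119, 557 and 1055, or 62.3, 16.4 and 31.0 per Mb. The short arm held 820, 214 and 420, or 30.4, 7.93 and 15.6 per Mb. The order of the 3 segments was the same in every replicate, although the counts of one segment differed several-fold between replicates.

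Relative density removed most of that difference between libraries. It was 2.06, 2.16 and 1.94 on chromosome 22, a mean of 2.05 ± 0.108 (SD, n = 3). On the long arm of chromosome 20 it was 1.77, 1.87 and 1.58, a mean of 1.74 ± 0.145 (SD, n = 3). On the short arm it was 0.862, 0.904 and 0.794, a mean of 0.853 ± 0.0556 (SD, n = 3). No value of chromosome 22 overlapped those of either arm, and every value of the short arm lay below 1.

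Within a replicate, chromosome 22 was 2.41 ± 0.0315 times as dense as the short arm of chromosome 20, and the long arm 2.04 ± 0.0381 times (SD, n = 3). The difference between chromosome 22 and the long arm was smaller, 0.313 ± 0.0378 in relative density and a ratio of 1.18 ± 0.0379 (SD, n = 3). Each of these differences had the same direction in 3 of 3 replicates and exceeded its spread between replicates. An exact 2-sided sign-flip permutation test over 3 replicates cannot go below a p of 0.25, which all 3 differences reached, and the value adjusted by Benjamini-Hochberg over 70 differences was 0.330. The differences below are therefore described by their size, spread and direction in each replicate. Without any one replicate, the difference between chromosome 22 and the short arm stayed between 1.17 and 1.23.

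**Figure D1:**
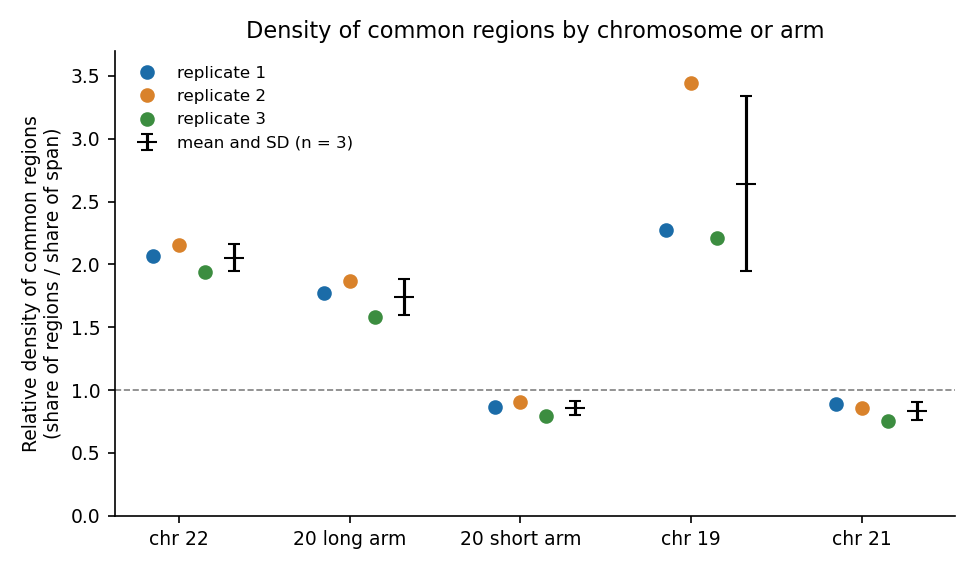
Relative density of common regions (share of regions over share of span, vertical axis) on chromosome 22, the arms of chromosome 20, and chromosomes 19 and 21, with a point for each replicate and the mean with SD beside it. The dashed line is the genome average of 1, above which lie all points of chromosome 22 and of the long arm, and below which lie all points of the short arm.

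The size of the contrast depended on the caller. Counted by MACS2 summits alone, relative density was 1.57 ± 0.162 on chromosome 22, 1.47 ± 0.199 on the long arm and 0.927 ± 0.0365 on the short arm (SD, n = 3). The difference between chromosome 22 and the short arm was then 0.648 ± 0.129, against 1.20 ± 0.0527 by common regions and 1.30 ± 0.0975 by all EPIC2 regions (SD, n = 3). The difference between chromosome 22 and the long arm shrank to 0.107 ± 0.0492 by summits (SD, n = 3). All these differences were above 0 in 3 of 3 replicates.

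Chromosome 22 ranked 3 of 23 chromosomes in relative density in every replicate, behind chromosomes 17 and 19. Chromosome 20 as a whole, at 1.35 ± 0.105 (SD, n = 3), ranked 5, 6 and 7 in replicates 1, 2 and 3, a place that hid the difference between its arms. Chromosome 19, which has the most coding genes per Mb, had a relative density of 2.64 ± 0.697 (SD, n = 3), and chromosome 22 minus chromosome 19 was -0.205, -1.29 and -0.268 in the replicates. Chromosome 21, close to chromosome 22 in length but with 5.49 coding genes per Mb, had 0.833 ± 0.0700 (SD, n = 3). The short arm of chromosome 20 differed from chromosome 21 by 0.0200 ± 0.0415 (SD, n = 3), higher in 2 of 3 replicates, which is within the spread between replicates.

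Across 22 autosomes, relative density followed gene density with a Spearman rho of 0.796 and a Pearson r of 0.865, and GC content with a Spearman rho of 0.890. These values describe chromosomes that share the same 3 libraries and whose gene density and GC content move together, and the part of either in the density of calls was not tested.

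**Figure D2:**
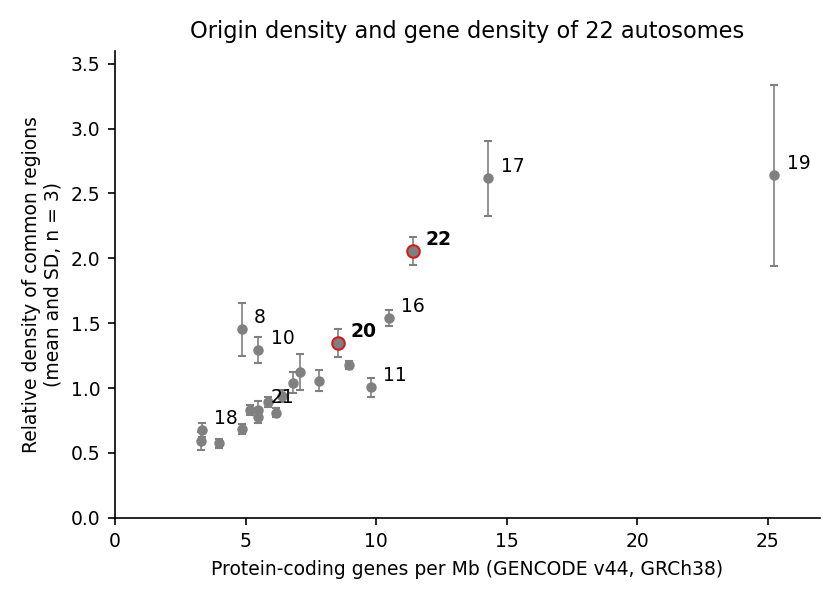
Relative density of common regions (mean and SD over 3 replicates, vertical axis) against protein-coding genes per Mb (GENCODE v44, GRCh38, horizontal axis) for 22 autosomes, with chromosomes 20 and 22 outlined in red. Chromosome 22 lies at 11.4 genes per Mb and a density of 2.05, and chromosome 20 at 8.54 genes per Mb and 1.35.

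In bins of 5 Mb, chromosome 22 was dense along its whole length and chromosome 20 was not. Calls on chromosome 22 begin in the fourth bin, since the short arm of this chromosome is not part of the hg19 sequence. All 8 bins of chromosome 22 with calls were above a relative density of 1 in every replicate. Its densest bin lay between 35 and 40 Mb, with 2.56, 3.26 and 2.50 in replicates 1, 2 and 3, a mean of 2.77 ± 0.424 (SD, n = 3). The next bin, from 40 to 45 Mb, had 2.75, 2.72 and 2.74, and the 2 bins do not differ beyond their spread. Its sparsest bin, from 30 to 35 Mb, still had 1.90, 1.28 and 1.69, a mean of 1.62 ± 0.317 (SD, n = 3).

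On the short arm of chromosome 20, the density was concentrated at the end of the chromosome. The first 5 Mb had a relative density of 1.94, 2.17 and 2.07, a mean of 2.06 ± 0.114 (SD, n = 3), close to that of chromosome 22. This bin held 41.7%, 44.4% and 48.3% of the arm's common regions in 5 of its 27 Mb with calls. All 5 other bins of the arm were below 1 in every replicate. The sparsest, from 10 to 15 Mb, had 0.409, 0.479 and 0.317, a mean of 0.401 ± 0.0816 (SD, n = 3), from 72, 21 and 31 common regions. The replicates differed most between 20 and 25 Mb, where replicate 2 had 0.959 and replicates 1 and 3 had 0.573 and 0.368.

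Without the first 5 Mb, a stretch set apart after its values were seen, the short arm had a relative density of 0.579 ± 0.0655 (SD, n = 3). Chromosome 22 then exceeded it by 1.47 ± 0.0558 and the long arm by 1.16 ± 0.0862 (SD, n = 3). The first 5 Mb also had wider and closer regions, with median widths of 1800, 2200 and 3400 bases against 1200, 1800 and 2600 in the rest of the arm. Median gaps were 7000, 33100 and 10600 bases in the first 5 Mb, and 17000, 99000 and 24600 bases beyond it.

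The long arm rose and fell. Its densest bin, from 30 to 35 Mb, had 2.79, 2.44 and 2.87, a mean of 2.70 ± 0.227 (SD, n = 3). Its sparsest, from 27.5 to 30 Mb beside the centromere, had calls in 1 Mb only, with 6, 3 and 4 common regions and a mean of 0.239 ± 0.0911 (SD, n = 3). The sparsest bin called throughout was that from 50 to 55 Mb, at 1.06, 0.799 and 0.909. Beyond 60 Mb the density was high again, at 2.26, 3.50 and 2.09, with replicate 2 well above the others. Of the 7 bins of the arm with at least 2 Mb of calls, 5 were above 1 in every replicate, and those from 50 to 55 Mb and from 55 to 60 Mb had replicates on both sides of it.

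**Figure D3:**
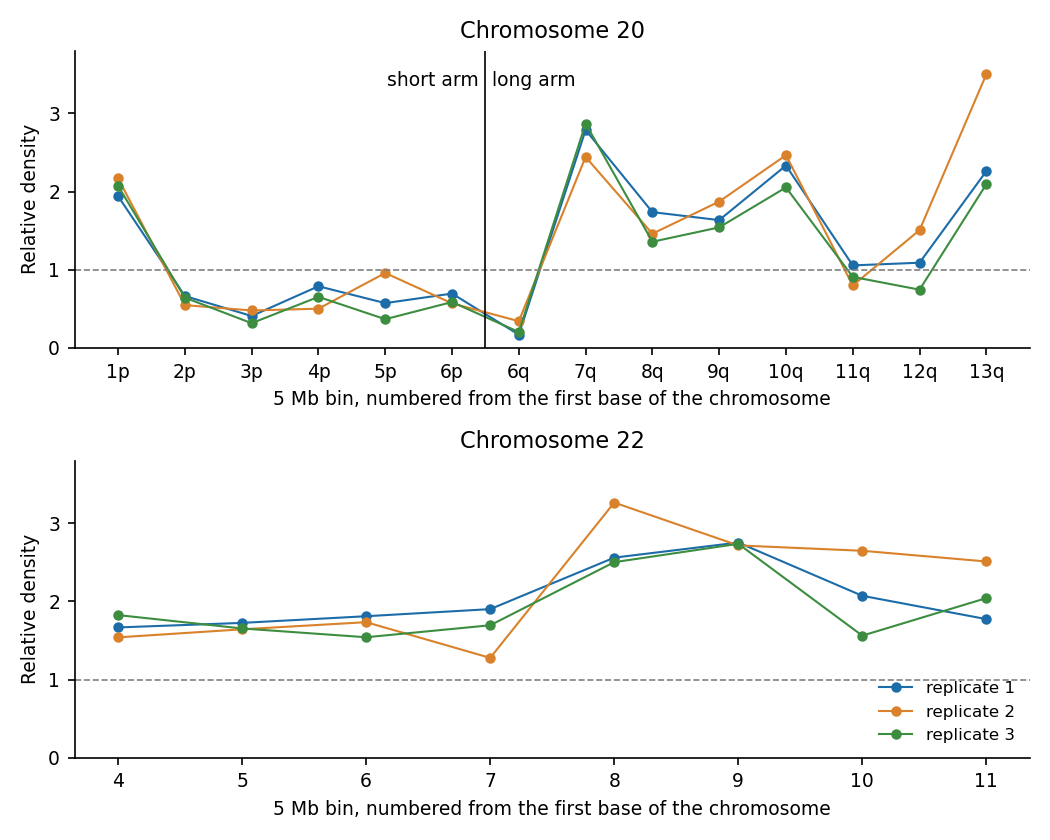
Relative density of common regions (vertical axis) in successive 5 Mb bins (horizontal axis, numbered from the first base) of chromosome 20, with the arms divided by the vertical line, and of chromosome 22, with a coloured line for each replicate and a dashed line at the genome average of 1. The first bin of chromosome 20 lies near 2 and the rest of its short arm below 1, while all bins of chromosome 22 lie above 1.

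The replicates ranked the bins in nearly the same order. Over the 21 bins with at least 2 Mb of calls, the Spearman rho of relative density was 0.868 between replicates 1 and 2, 0.935 between replicates 1 and 3, and 0.857 between replicates 2 and 3. Mean density went with mean region width at a rho of 0.808 and with the number of EPIC2 regions per summit at 0.861 over the same bins. The latter ranged, in replicate 3, from 0.200 between 10 and 15 Mb of chromosome 20 to 1.00 at the end of chromosome 22. Bins of one chromosome are neighbours and share their libraries, and these coefficients are descriptions. Common regions are themselves EPIC2 regions, so the number of EPIC2 regions enters both sides of the coefficient of 0.861.

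Of the 3 segments, chromosome 22 had the widest common regions. Their median width was 2000, 2300 and 3800 bases in replicates 1, 2 and 3, against 1800, 2200 and 3600 on the long arm of chromosome 20 and 1400, 2000 and 3000 on the short arm. Chromosome 22 exceeded the short arm by 567 ± 252 bases and the long arm by 167 ± 57.7 bases (SD, n = 3), both in 3 of 3 replicates. EPIC2 works in steps of 200 bases, so the difference from the long arm was at most 1 step. It was 0 ± 200 bases (SD, n = 3) when all EPIC2 regions were measured. Against the genome medians of 1600, 2400 and 3200 bases, chromosome 22 was wider in replicates 1 and 3 and 100 bases narrower in replicate 2, whereas the short arm was narrower in 3 of 3.

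Most common regions held a single summit. The share with exactly 1 was 82.2% ± 6.82 on chromosome 22, 82.5% ± 6.35 on the long arm and 84.5% ± 7.42 on the short arm (SD, n = 3). Over all chromosomes it was 83.1% ± 6.68 (SD, n = 3), between the values of the segments. Chromosome 22 minus the short arm was -3.50, -2.99 and -0.284 percentage points in the replicates, lower in 3 of 3, and the other pairs of segments had no common direction. The covered share differed more than the width. Common regions covered 18.1%, 4.86% and 17.5% of the span of chromosome 22, 14.3%, 4.27% and 13.2% of the long arm, and 5.57%, 1.73% and 5.76% of the short arm.

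Of the 3 segments, chromosome 22 also had the closest common regions. The median gap from the end of a region to the start of the next was 5800, 24600 and 9200 bases on chromosome 22, and 6600, 25000 and 10000 bases on the long arm. It was 11000, 58400 and 15800 bases on the short arm, against genome medians of 8600, 36600 and 11400. Replicate 2, with the fewest calls, had the longest gaps everywhere, but the order of the 3 segments was the same in each replicate.

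The gap on chromosome 22 was 0.510 ± 0.0819 times that of the short arm, and that on the long arm 0.554 ± 0.110 times (SD, n = 3). In bases, the difference between chromosome 22 and the short arm averaged -15200, and -5900 without replicate 2, and that between the arms -14533, and -5100 without it. Chromosome 22 and the long arm differed by only -667 ± 231 bases (SD, n = 3). Gaps longer than 50 kb made up 2.64%, 27.4% and 8.85% of those on chromosome 22, 4.39%, 32.7% and 10.2% on the long arm, and 15.1%, 55.9% and 21.7% on the short arm. Gaps shorter than 5 kb made up 43.7%, 12.1% and 31.6% on chromosome 22 and 24.8%, 5.63% and 20.3% on the short arm. Over all chromosomes the longer gaps made up 11.1%, 42.2% and 15.9%, and the shorter ones 33.3%, 10.9% and 28.1%.

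**Figure D4:**
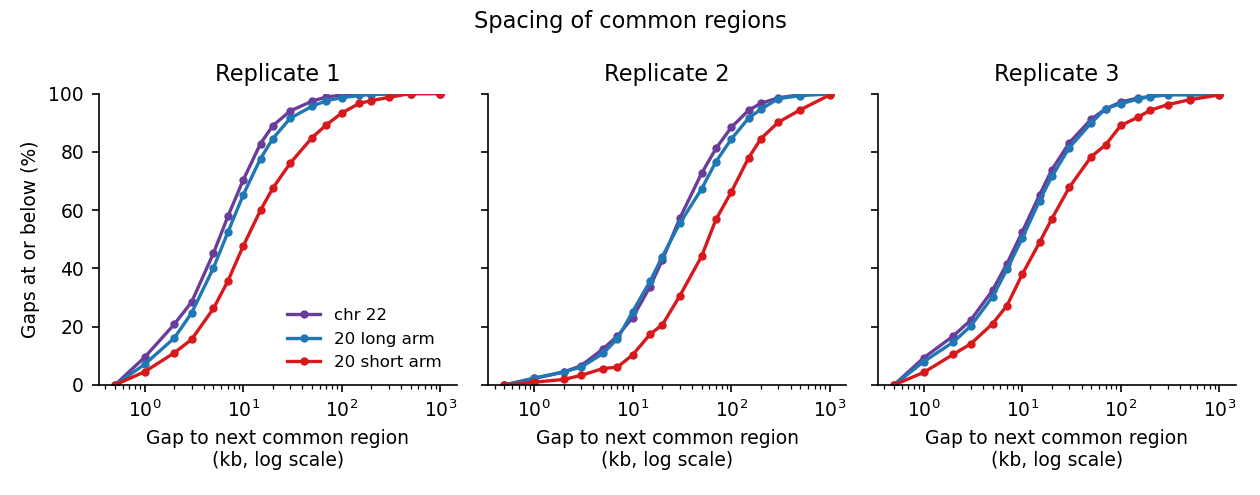
Cumulative share of gaps between neighbouring common regions (percent of gaps at or below a length, vertical axis) against gap length in kb on a log scale (horizontal axis), in a panel for each replicate with a line for each segment. The curve of the short arm of chromosome 20 lies to the right of the others in each panel, with medians of 11000, 58400 and 15800 bases.

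Common regions of chromosome 22 and of the long arm were found in another replicate more often than those of the short arm. On chromosome 22, 54.0% of 2619, 85.0% of 680 and 68.8% of 1368 common regions in replicates 1, 2 and 3 overlapped a common region of another replicate by at least 1 base. On the long arm the shares were 51.4%, 83.3% and 68.2%, and on the short arm 42.1%, 69.6% and 56.0%. Over all chromosomes the shares were 48.4%, 79.0% and 60.9% in the same order. Counting a match in any other replicate, chromosome 22 and the long arm were thus above the genome in each replicate and the short arm below it.

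Chromosome 22 exceeded the short arm by 13.4 ± 1.78 percentage points and the long arm exceeded it by 11.8 ± 2.23 (SD, n = 3), in 3 of 3 replicates. Chromosome 22 and the long arm differed by 1.62 ± 1.05 points (SD, n = 3), and by 0.684 points without replicate 3. The level of sharing depended most on replicate 1. Without replicate 1 the mean share dropped from 69.3% to 27.1% on chromosome 22 and from 67.6% to 25.8% on the long arm. On the short arm it dropped from 55.9% to 17.9%. Leaving out any replicate leaves a single other one to match. The shares were 54.6%, 52.7% and 41.5% in the same order without replicate 2, and 52.1%, 51.4% and 41.6% without replicate 3. Without replicate 1, chromosome 22 exceeded the short arm by 9.21 points and the long arm exceeded it by 7.97. Of replicate 2 regions, 36.3% on chromosome 22 and 33.8% on the long arm were found in replicate 3, below the 37.5% over all chromosomes. Of replicate 3 regions, 17.8% and 17.9% were found in replicate 2, against 16.3%. Between these replicates, sharing on chromosome 22 and the long arm was thus not above the genome in both directions. The contrast with the short arm rested on the overlap that counts. With a reciprocal overlap of 50%, the shares fell to 34.0% on chromosome 22, 31.4% on the long arm and 31.2% on the short arm. The difference between chromosome 22 and the short arm was then 2.82 ± 0.722 points, and that between the arms 0.188 ± 5.15 points (SD, n = 3) with no common direction. Averaged over 3 classes of region width, an alternative added once the values were known, the differences were 9.65 ± 3.05 and 8.90 ± 2.54 points (SD, n = 3).

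A different measure, counting summits and set against how much of a segment the regions cover, gave the segments in the reverse order. The share of a replicate's summits lying in the common regions of another replicate, divided by the share of span these regions cover, was 2.38 ± 0.913 on chromosome 22 and 2.60 ± 0.979 on the long arm (SD over 6 ordered pairs of replicates). On the short arm this ratio was 4.46 ± 1.86, ranging from 2.85 to 7.31 (SD over the same 6 pairs), and over the genome it ranged from 2.61 to 6.60. The short arm was above the other segments in each of the 6 pairs. For summits of replicate 2 in regions of replicate 1, for example, 65.3% lay in regions covering 18.1% of chromosome 22, and 40.7% in regions covering 5.57% of the short arm. Such a ratio has a lower ceiling where the regions cover more of a segment, and the part of this in the lower ratio of chromosome 22 was not tested. The 6 ordered pairs come from the same 3 libraries and are not independent. The part of coverage in the higher sharing of chromosome 22 was not tested, and these ratios cannot decide it.

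**Figure D5:**
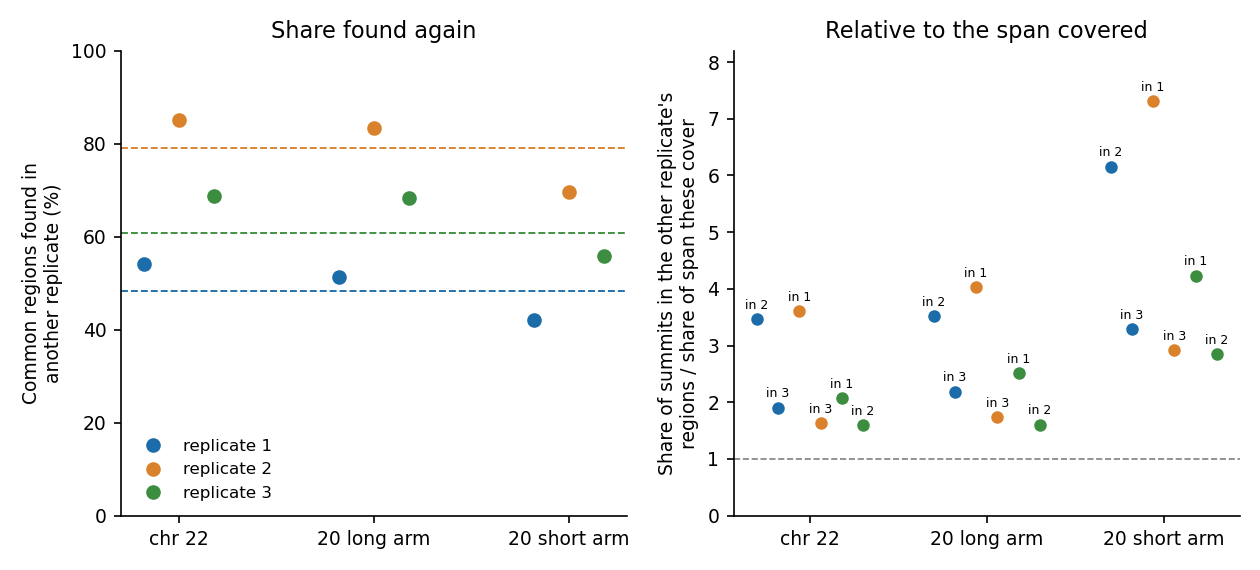
Left, percent of common regions found in another replicate (vertical axis) on chromosome 22 and the arms of chromosome 20, a point for each replicate, with the genome value of each replicate as a dashed line of its colour. Right, the share of a replicate's summits lying in the regions of another replicate (named beside each point) divided by the share of span those regions cover, which reached 7.31 on the short arm and at most 4.02 on the long arm and 3.61 on chromosome 22.

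Exact positions were shared mainly between replicates 1 and 2. Of the summits of replicate 2, 42.8% on chromosome 22 lay within 100 bases of a summit of replicate 1, 39.2% on the long arm and 35.7% on the short arm, against 37.3% over the genome. The corresponding shares of replicate 2 summits near a summit of replicate 3 were 5.55%, 5.74% and 6.09%. The ordering of segments seen between replicates 1 and 2 did not appear between replicates 2 and 3.

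The callers overlapped differently on these chromosomes. On chromosome 22, 76.3%, 61.2% and 64.6% of EPIC2 regions held a summit of their own replicate, on the long arm 77.7%, 63.7% and 65.3%, and on the short arm 81.4%, 63.5% and 73.0%. Over all chromosomes these shares were 81.7%, 56.8% and 71.7%. Chromosome 22 minus the short arm was -5.14, -2.30 and -8.42 percentage points, and chromosome 22 was below the genome in replicates 1 and 3 but above it in replicate 2.

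In the other direction, 75.9%, 55.7% and 59.7% of the summits on chromosome 22 lay in an EPIC2 region of their replicate, against 70.6%, 49.9% and 53.1% on the long arm and 51.5%, 41.2% and 38.5% on the short arm. Among these segments, summits outside diffuse regions were thus most frequent on the short arm in every replicate. Over all chromosomes 57.5%, 44.2% and 43.7% lay inside, above the short arm and below chromosome 22 and the long arm in each. Chromosome 21, with 54.4%, 41.8% and 38.0%, was close to the short arm, so this was not particular to it.

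The scores of the callers ordered chromosome 22 and the short arm of chromosome 20 in opposite ways. The highest summit score of a common region was ranked as a percentile among all common regions of its replicate, because scores may not compare between replicates. Its median was 41.9, 52.0 and 40.5 on chromosome 22, 44.4, 53.7 and 43.1 on the long arm, and 51.4, 53.6 and 48.6 on the short arm. Chromosome 22 minus the short arm was -9.52, -1.53 and -8.08 percentile points, and the long minus the short arm -7.08, 0.0860 and -5.49, with no common direction. By the EPIC2 score, the median percentile was 59.6, 50.3 and 58.4 on chromosome 22, 55.7, 51.7 and 56.9 on the long arm, and 46.1, 39.0 and 41.0 on the short arm. Chromosome 22 was higher than the short arm by 14.0 ± 3.13 points on that scale (SD, n = 3). Chromosome 22 minus the long arm was 3.85, -1.44 and 1.54 points there, with no common direction.

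Common regions were merged over replicates, and those with at least 2 replicates are called consensus origins. On chromosome 22, 1180 of 2913 merged regions were consensus origins (40.5%, 95% Clopper-Pearson interval 38.7% to 42.3%). On the long arm 940 of 2398 were (39.2%, 37.2% to 41.2%), and on the short arm 326 of 1051 (31.0%, 28.2% to 33.9%). Over all chromosomes the share was 34.5%, so that the intervals of chromosome 22 and the long arm lie above it and that of the short arm below it. The intervals cover counting error only, and neighbouring regions are not independent.

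All 3 replicates shared 247 consensus origins of chromosome 22 (20.9%, interval 18.6% to 23.4%), 182 of the long arm (19.4%, 16.9% to 22.04%) and 41 of the short arm (12.6%, 9.18% to 16.7%). The genome-wide share was 19.1%, inside the intervals of chromosome 22 and the long arm and above that of the short arm. These intervals too cover counting error only, and neighbouring origins are not independent. On the short arm 27 of the 41 lay in the first 5 Mb, which held 166 of the arm's 326 consensus origins. The share with all 3 replicates was thus 16.3% there, also below that of the genome. None of the 20 consensus origins between 10 and 15 Mb had all 3 replicates, but these are few. On chromosome 22, the bin from 35 to 40 Mb had the most, 64 of 216.

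Replicate 1 contributed to nearly all consensus origins, being part of 99.1% on chromosome 22, 99.0% on the long arm and 97.2% on the short arm. Replicate 3 was part of 75.3%, 73.2% and 70.2%, and replicate 2 of 46.5%, 47.1% and 45.1%, in the same order. Only 11, 9 and 9 consensus origins rested on replicates 2 and 3 without replicate 1. Over all chromosomes, replicate 1 was part of 98.2%, replicate 3 of 76.9% and replicate 2 of 43.98%. There, 763 of 42075 consensus origins rested on replicates 2 and 3 without replicate 1. The large part of replicate 1 was thus not particular to these segments.

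Consensus origins numbered 32.8 per Mb on chromosome 22, 27.6 per Mb on the long arm and 12.1 per Mb on the short arm. Their median width was 4600, 4600 and 3600 bases, and the median gap between them 10200, 11200 and 21800 bases. Over all chromosomes consensus origins numbered 14.6 per Mb, with a median width of 4000 bases and a median gap of 13800 bases. Linked over gaps of at most 10 kb, 27.5% of those on chromosome 22 had no neighbour, 31.1% on the long arm and 52.5% on the short arm. Groups of 5 or more held 22.1%, 21.1% and 15.03% of them. Chromosome 19 had 15.6% without a neighbour and 54.7% in such groups, and chromosome 21 had 42.7% and 9.19%. A link of fixed length joins more origins where they lie closer, so these shares are not separate from density.

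The largest such group of chromosome 22 had 14 consensus origins, 3 of them in all replicates, within 193000 bases from 38799401 to 38992400. The largest on the long arm had 15 within 204800 bases from 48220401 to 48425200, 6 of them in all replicates. Although sparse, the short arm held the largest group of the 3 segments, 17 within 213800 bases from 3694001 to 3907800, of which 1 was in all replicates. This group lies in the dense first 5 Mb. Coordinates are in hg19 and count from 1.

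Individual consensus origins in all 3 replicates were ranked by the mean percentile of their highest summit score. On chromosome 22 the strongest lay at 21261401 to 21275200, with top summit scores (−log10 of the q-value) of 16.5, 30.3 and 8.66 in replicates 1, 2 and 3. It was followed by 33929801 to 33933800, with 20.04, 12.6 and 13.4, and by 42948401 to 42950200, with 29.5, 14.0 and 8.91. Their mean percentiles, 90.2, 89.5 and 88.5, are nearly equal. Different replicates gave the highest percentile at each, 95.6 in replicate 2 at the first, 97.0 in replicate 3 at the next and 98.4 in replicate 1 at the last.

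The first 2 origins of the long arm by this rank lay at 33462801 to 33466800, with a mean percentile of 92.8, and at 33411601 to 33415200, with 92.8, both in the densest bin of the arm. The latter had top scores of 50.3, 34.3 and 8.01, the percentiles 99.9, 96.8 and 81.6. The next, at 48322401 to 48340600, had a mean percentile of 90.8 and lies in the largest group of the arm, beside the arm's widest consensus origin, 39800 bases from 48341801 to 48381600. That one merged 4, 3 and 3 common regions of the replicates.

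On the short arm the mean percentiles of the first 3 were 84.4, 84.3 and 81.3, out of 41 origins in all replicates against 247 on chromosome 22 and 182 on the long arm, so these highest values do not compare between segments. The first, at 23616601 to 23619400, had percentiles of 65.1, 98.9 and 89.3, and the next, at 1614601 to 1617000, had 96.6, 60.6 and 95.8. The third, at 3831401 to 3888200, was also the widest consensus origin of the 3 segments, 56800 bases merged from 6, 3 and 2 common regions with 11, 3 and 9 summits. Chromosome 22 had its widest, 32400 bases, at 39687601 to 39720000 in its densest bin.

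The longest stretch without a consensus origin was shortest on chromosome 22. It measured 650800 bases there, from 34270201 to 34921000, and held 11, 0 and 2 common regions of replicates 1, 2 and 3. On the short arm it measured 1205200 bases, from 15152401 to 16357600, with 9, 1 and 0 common regions. The long arm had the longest, 1467400 bases from 37740801 to 39208200, with 19, 0 and 0 common regions but 64, 22 and 41 summits. These stretches thus held common regions, mostly of replicate 1, and were not empty. Summits of every replicate lay in them too, with 36, 12 and 23 on chromosome 22 and 56, 8 and 27 on the short arm. Gaps over 100 kb between consensus origins numbered 39 on chromosome 22, 44 on the long arm and 54 on the short arm, which has the fewest origins.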

How the data were processed

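SNS-seq of untreated HCT116 gave 3 replicates. Per the methods, reads were aligned by the authors to hg19, using Bowtie2 (version 2.3.4.2). They removed duplicates with Picard (version 2.18.17) and called each replicate with MACS2 (version 2.1.0.20151222) and EPIC2 at a threshold of 0.1. No source used here names a control library for calling. EPIC2 lists were deposited with a score of unstated kind, used within a replicate only. The deposited MACS2 summits hold a score read as the −log10 of the q-value. Depth per sample is unknown.

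Calls on chromosomes 20 and 22 were counted per segment, in bins of 5 Mb, with Python 3.11.15, numpy 2.4.6, pandas 2.3.3 and scipy 1.17.1, and plotted with matplotlib 3.10.9. The interval functions returned the planted number in 8 of 8 checks on simulated regions. Common regions were EPIC2 regions holding a summit. The methods do not say which overlapping feature was counted, so consensus origins are not an exact rebuild. Paired differences between segments were tested by exact sign-flip permutation. Named regions were, per segment, the 3 with the highest mean summit percentile among consensus origins of all replicates, the widest consensus origin, the longest stretch without one, and the densest and sparsest bin. Other bins, the largest groups, the stretches set apart within arms and chromosome 17 were named after their values were seen.

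The members, lists and tests were chosen with earlier results of these data known. Alternatives covered the unit, the q-value (0.01), the overlap, the span, equal numbers of regions (25282), the score and leaving out each replicate. Windows of 100 kb, the short arm without its first 5 Mb and classes of width were added after seeing the data. Chromosome 22 had calls up to 51181755, beyond its GRCh38 length (50818468), so that reference served for gene counts and GC content per chromosome only. Genes at the regions and their sequences were not analysed here.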

Additional observations from a re-analysis of the deposited data

How the results depend on the processing

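Mean differences between segments kept their sign in 110 of 114 recalculations, with every replicate on that side in 96 and replicates not all on that side in 14. Part of these recalculations could not change the sign. Leaving out a replicate keeps it where all 3 replicates agreed, and removing bases of the short arm cannot move chromosome 22 minus the long arm. The width of chromosome 22 minus the long arm became 0 bases over all EPIC2 regions. Further, 89 of 114 values of single segments moved by less than 1 SD. The 3 reversals came with the EPIC2 score in place of the summit score, where chromosome 22 minus the long arm became 1.32, chromosome 22 minus the short arm 14.0 and the long minus the short arm 12.7 percentile points, from medians of 56.1, 42.1 and 54.8 on chromosome 22, the short arm and the long arm. The cause was not tested. In that order, relative density was 1.57, 0.927 and 1.47 by summits and 2.39, 0.749 and 1.92 with equal numbers of regions per replicate. Over the length from first to last call it was 2.24 on chromosome 22 and 0.911 on the short arm, which without its first 5 Mb had 0.579. Median widths with equal numbers were 3833, 3233 and 3533 bases. The share found in another replicate fell to 34.0%, 31.2% and 31.4% with a reciprocal overlap of 50%, and leaving out a replicate gave 27.1% to 54.6% on chromosome 22, 17.9% to 41.6% on the short arm and 25.8% to 52.7% on the long arm (lowest without replicate 1 in each). The cause was not tested. All differences were paired within a replicate. With 3 replicates, no outlying library can be called, and lists without read numbers do not allow depth and biology to be told apart.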
